A study of Mus musculus with 4 samples.

Results

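Egr1, Egr4, Nr4a1 and Nr4a2, activity-induced transcription factors, were followed in dentate gyrus RNA of young male C57BL/6J mice; the dentate gyrus is the granule cell field of the hippocampus. They were taken as all features of the deposited table whose platform gene symbol is 1 of these 4 names, which gave 5 of the 16281 features: 1 each for Egr1, Egr4 and Nr4a1 and 2 for Nr4a2. Of these, 4 had a value on all 4 arrays, as did 8777 features in all, and the other Nr4a2 feature had no value at 2 h. There was 1 array with 2 colours at each of 1, 2, 4 and 6 h. The Cy5 channel held RNA of animals given MK-801 by injection, at a dose that the labels print as 300 µg for each g of body weight, a figure far above the usual doses of this drug whose unit may be an error in the labels, and the Cy3 channel held RNA of animals given saline at 5 µL for each g. MK-801, or dizocilpine, blocks the channel of the NMDA-type glutamate receptor. The labels count the times from the last shock of experimental mice, call the RNA of both channels that of control mice, and so do not settle whether these mice were shocked. They give neither the number of mice pooled nor a repeat of any time, and no array turned the dyes around.

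All values are log ratios of the 2 channels, read as log2 and centred on the median of their array. The table does not state which channel is on top, so a positive value stands for more RNA either in the MK-801 channel or in the saline channel, and every signed statement holds with the treatments exchanged. Base 2 is a working reading as well; if the values were natural logarithms, every size would be 1.44 times larger, and if they were log10, 3.32 times larger. An exact 0 was taken as no value. The arrays had 10185 to 12227 features with a value.

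Immediate early genes are transcribed within minutes of neuronal activity without new protein synthesis. Calcium entry, part of it through NMDA receptors, activates the MAP kinase and CaM kinase pathways, which act on the promoters of these genes through serum response factor with its Elk partners and through CREB. Egr1 (Zif268) and Egr4 belong to a family of zinc finger proteins that bind a GC-rich element. The activity of Egr1 is held back by the corepressors Nab1 and Nab2. Nr4a1 (Nur77) and Nr4a2 (Nurr1) are orphan nuclear receptors that need no ligand, are controlled mainly through their own transcription, and can pair with the retinoid X receptors. In the dentate gyrus Egr1 is a standard marker of granule cell activity and of synaptic potentiation.

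The promoters of Nr4a1, Nr4a2 and Egr4 are shown so that the letters before the start of these members can be read beside their ratios; the Egr1 window is not used here. Each window runs from 250 bases before to 50 bases after the annotated start in RefSeq on build GRCm38.p6, written on the strand of the gene. Capitals mark the CREB core TGACG or its reverse complement and the TATA box TATAAA or its reverse complement.
Nr4a1, chr15:101266596-101266895, plus strand: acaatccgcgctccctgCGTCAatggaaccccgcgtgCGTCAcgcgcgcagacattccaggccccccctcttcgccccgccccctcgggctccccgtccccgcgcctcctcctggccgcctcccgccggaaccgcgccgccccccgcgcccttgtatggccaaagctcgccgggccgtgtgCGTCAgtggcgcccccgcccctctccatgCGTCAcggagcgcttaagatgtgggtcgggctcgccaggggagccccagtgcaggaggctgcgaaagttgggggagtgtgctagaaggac
Nr4a2, chr2:57123954-57124253, minus strand: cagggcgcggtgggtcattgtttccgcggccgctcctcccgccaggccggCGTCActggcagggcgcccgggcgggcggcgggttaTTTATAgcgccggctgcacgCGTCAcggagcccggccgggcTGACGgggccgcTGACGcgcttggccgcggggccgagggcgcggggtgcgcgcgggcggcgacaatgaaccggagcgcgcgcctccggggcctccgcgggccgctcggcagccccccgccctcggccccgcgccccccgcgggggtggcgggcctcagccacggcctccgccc
Egr4, chr6:85513540-85513839, minus strand: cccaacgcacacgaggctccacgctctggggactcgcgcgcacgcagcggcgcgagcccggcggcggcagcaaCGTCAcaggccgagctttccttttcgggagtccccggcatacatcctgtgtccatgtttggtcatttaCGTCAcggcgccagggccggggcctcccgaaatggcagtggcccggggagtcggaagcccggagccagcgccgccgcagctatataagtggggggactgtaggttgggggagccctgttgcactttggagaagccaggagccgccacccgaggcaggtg

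The Nr4a1 window held 4 copies of TGACG, the nearest of them at positions -40 to -36 relative to the start. The Nr4a2 window also held 4 copies, between positions -200 and -107, and the Egr4 window held 2. The only match of TATAAA lay in the Nr4a2 window, as its reverse complement at positions -164 to -159. Only these exact letters were searched, so the stretch tatataag before the Egr4 start is not marked. Among the 32851 promoter windows of 27025 genes in the same RefSeq table, 20.8% held at least 1 copy of TGACG, 5.01% at least 2 and 0.231% at least 4. The full palindrome TGACGTCA (1.79% of windows), the CArG box bound by serum response factor (1.63%), the Egr element GCGTGGGCG (0.612%) and the Nr4a element AAAGGTCA (1.51%) had no exact match in these 3 windows, and the TATA box had a match in 13.6% of all windows. Both strands were searched. The TGACG copies would also be counted within TGACGTCA, which was absent here. CREB is known to act on Nr4a promoters, which is why its core was marked here. The shares of all windows are a description, with no test, and a match is a stretch of letters and not evidence of binding.

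Egr1 read 0.16, -0.37, -0.68 and -0.53 in the order of the 4 times. It was thus slightly positive on the 1 h array and negative on each later array, and its lowest value, a ratio of 1.61-fold, came at 4 h. On that array 3.19% of features lay at or below it, and 3.69% did so at 6 h, against 31.1% at or above its value at 1 h. The Egr1 mean over 2, 4 and 6 h was -0.53 ± 0.16 (SD, n = 3 arrays).

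Egr4 read 0.13, -0.22, -0.498 and -0.34 at 1, 2, 4 and 6 h. Its order over the times was that of Egr1, with the highest value at 1 h and the lowest at 4 h. Its ratios were smaller at the later times. Within an array, Egr1 minus Egr4 came to 0.04 on the 1 h array, -0.15 on the 2 h array and -0.19 on both of the others. Egr1 was therefore the lower of the pair on the 3 later arrays, by 0.18 ± 0.02 on average (SD, n = 3 arrays), while the spread between features of the same gene was larger than that. That spread, pooled over all genes with several features, had an SD of 0.374 and 0.339 on the 1 and 2 h arrays and of 0.571 and 0.463 on the 4 and 6 h arrays.

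Nr4a1 read 0.63, -0.13, -0.28 and -0.36 at 1, 2, 4 and 6 h. It had the highest value of the 5 features at 1 h, a ratio of 1.55-fold, and the 3 later values were all negative. At 1 h, 5.50% of features lay at or above it, and at 6 h 7.28% lay at or below it. Nr4a1 minus Egr1 was positive on every array, at 0.47, 0.24, 0.41 and 0.16, so both moved down after 1 h from different levels of the ratio.

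**Figure D1:**
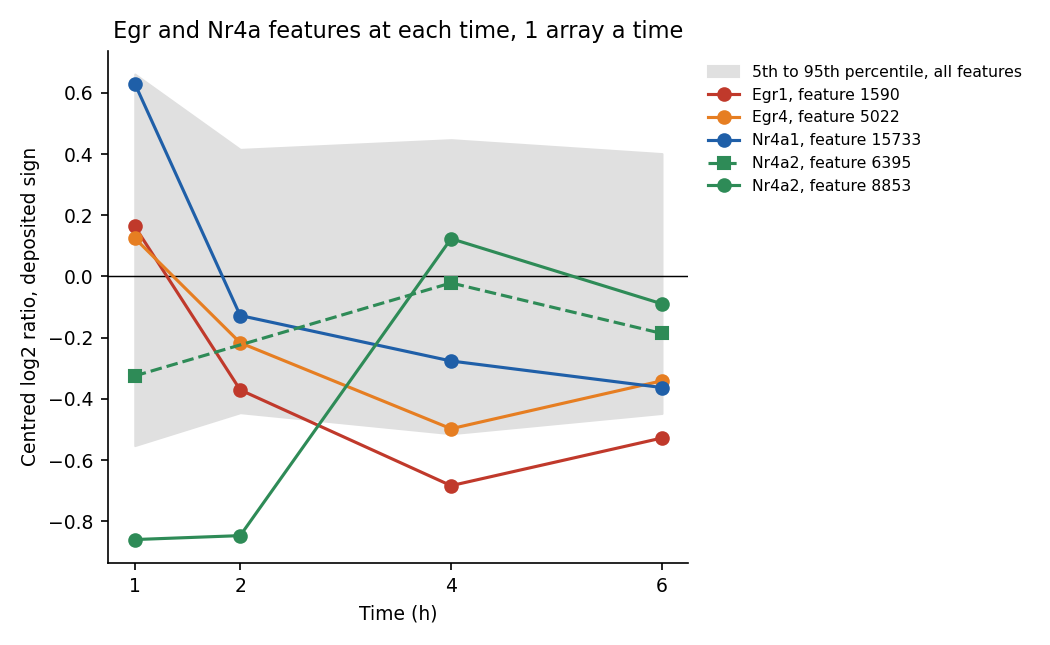
Centred log2 ratio of the 5 Egr and Nr4a features (lines and points) against time in hours, 1 array a time, with the band between the 5th and 95th percentile of all features on each array. Egr1, Egr4 and Nr4a1 lie above 0 at 1 h and below 0 at 2, 4 and 6 h, and Nr4a2 feature 8853 lies near -0.85 at 1 and 2 h and near 0 afterwards. The dashed Nr4a2 feature 6395 has no point at 2 h.

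Nr4a2 followed another course. Its feature 8853 read -0.86 and -0.85 at the early times, 1 and 2 h, and 0.12 and -0.09 at the late ones. Both early values were low on their arrays, with 0.964% of features at or below it at 1 h and 1.17% at 2 h, and both late values were close to 0. Its feature 6395 read -0.32, -0.02 and -0.19 at 1, 4 and 6 h. The features of Nr4a2 thus had the same sign at 1 h and 6 h and opposite signs at 4 h. They differed by -0.53 at 1 h (8853 minus 6395), 0.14 at 4 h and 0.10 at 6 h. At 1 h the median absolute difference between the features of a gene with 2 of them was 0.309 over 1538 genes, and the 90th percentile was 0.896, so the gap for Nr4a2 lay between these. The low value of Nr4a2 at 2 h rests on feature 8853 alone.

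With a fixed limit of 0.5 in absolute log2 ratio, a ratio of 1.41-fold, few member values stood out at any time. At 1 h 1 of 5 features (Nr4a1) lay at or above 0.5, where 9.03% of all features did, and 1 (Nr4a2 feature 8853) lay at or below -0.5, where 6.37% did. At 2 h 1 of 4 features (Nr4a2 feature 8853) lay at or below -0.5, against 3.88% of all features. Egr1 was the 1 member past -0.5 on the 4 h and the 6 h array, where 5.21% and 4.09% of all features were, and Egr4 at 4 h lay just short of the limit. No member reached 0.5 on the positive side at 2, 4 or 6 h, where 2.48%, 3.85% and 2.68% of features did. With 1 array a time these values have no test.

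The question for the time course was whether the ratio at 1 h differed from that at 2, 4 and 6 h. In limma, with the spread among the 3 later arrays as the error and the single 1 h array assumed to vary like them, Nr4a1 was 0.89 ± 0.13 higher at 1 h (SE, 95% interval 0.55 to 1.22, adjusted p = 0.0258 over 8777 features). Egr1 was 0.69 ± 0.15 higher (interval 0.32 to 1.06, adjusted p = 0.0437, limma). Egr4 was 0.48 ± 0.14 higher (interval 0.12 to 0.83) and did not pass (adjusted p = 0.0788, limma). Nr4a2 feature 8853 gave -0.59 ± 0.36 (interval -1.49 to 0.31, adjusted p = 0.301, limma), with the early value of 2 h counted among the later times.

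These counts are read against a large background. In the same fit 11.8% of all features passed, 5.45% higher and 6.36% lower at 1 h, beside 2 of the 4 members, both higher. That background moved with single arrays and with scaling: 1659 of 9015 features passed without the 2 h array, 118 of 9186 without the 4 h array and 215 of 9014 without the 6 h array. The split of 478 higher and 558 lower features became 63 and 180 with quantile normalisation and 21 and 3 with arrays of equal spread. The sign pattern of Egr1, Egr4 and Nr4a1, positive at 1 h and negative at each later time, was found in 15.0% of all features. The 1 h array stood apart over the whole table: across 8735 features, without those at or under -1.5, its ratios correlated at r = -0.13 with 2 h, -0.15 with 4 h and -0.15 with 6 h, while the later arrays correlated at 0.46 to 0.70 with each other (Pearson, across features, which are not replicates). The hour and the array cannot be told apart, since 1 h is a single array. The Egr1 call was lost without the 4 h array (adjusted p = 0.0815, limma), without the 6 h array (0.0961) and with quantile normalisation (0.0753), with arrays of equal spread (0.101), with exact 0 as a value (0.105) and with values on at least 3 arrays (0.0535). The Nr4a1 call was lost without the 4 h array (0.0649), without the 6 h array (0.0575), with quantile normalisation (0.0678) and with equal spread (0.0829). The difference of each of these genes stayed positive in all of the settings run.

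**Figure D2:**
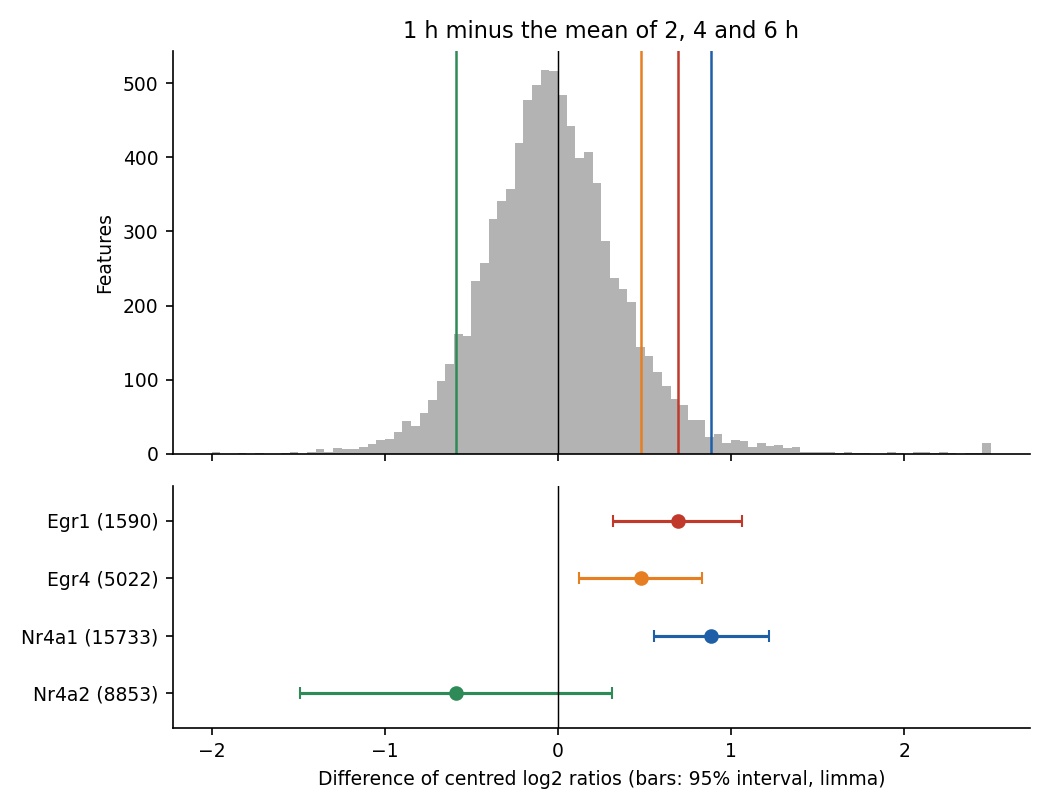
Top, number of features by the difference of centred log2 ratios between 1 h and the mean of 2, 4 and 6 h, with coloured lines at the member features and values beyond the limits placed in the end bins. Bottom, the difference of each member feature (feature number in brackets) with its 95% interval from limma: the intervals of Egr1, Egr4 and Nr4a1 lie above 0 and that of Nr4a2 spans 0.

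**Figure D3:**
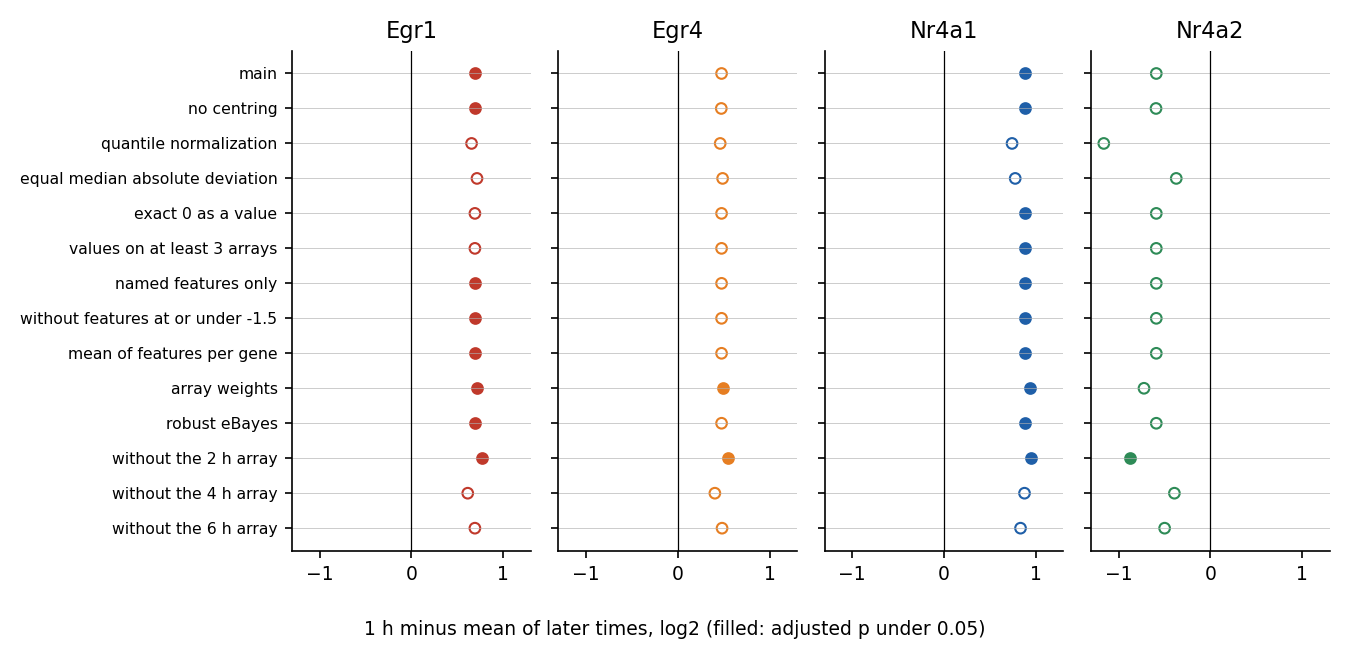
The same difference for each member gene (1 panel each, log2 scale) under the setting reported and 13 others, filled where the adjusted p was under 0.05. Egr1, Egr4 and Nr4a1 stay to the right of 0 and Nr4a2 to the left in every row, while the filling changes between rows.

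Over the 3 later arrays alone, the ratio of Egr1 was -0.53 ± 0.08 (SE, adjusted p = 0.0246 in limma over 9353 features) and that of Egr4 -0.35 ± 0.07 (adjusted p = 0.0429, limma). Nr4a1 gave -0.26 ± 0.07 (adjusted p = 0.0653, limma) and Nr4a2 feature 8853 -0.27 ± 0.18 (adjusted p = 0.335, limma). This is the mean test with the 1 h array left out, the only array on which Egr1, Egr4 and Nr4a1 were positive. With the 2, 4 or 6 h array left out instead, 0 features passed. In the fit without 1 h 10.9% of all features passed, 5.24% with a negative mean, beside 2 of the 4 members. These means hold any constant dye bias of a feature, which a dye swap would have shown.

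With all 4 arrays the mean ratio was -0.35 ± 0.14 for Egr1 (SE, adjusted p = 0.331, limma), -0.23 ± 0.11 for Egr4 (0.372), -0.03 ± 0.17 for Nr4a1 (0.942) and -0.42 ± 0.19 for Nr4a2 feature 8853 (0.357). In limma 0 features passed in this test, and 14.8% were under an unadjusted p of 0.05. With arrays weighted by their agreement in limma 2406 of the 8777 features passed, among them Egr1 (-0.52, adjusted p = 0.00856), Egr4 (-0.35, 0.0125) and Nr4a1 (-0.27, 0.0458). The slope per doubling of time was negative for Egr1 (-0.29 ± 0.09), Egr4 (-0.20 ± 0.08) and Nr4a1 (-0.37 ± 0.09) and positive for Nr4a2 feature 8853 (0.39 ± 0.11), with adjusted p between 0.271 and 0.302 in limma. Of all slopes 0 passed after adjustment and 15.5% were under an unadjusted p of 0.05.

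Late against early times set the 2 low early values of Nr4a2 against its late ones. Feature 8853 averaged 0.02 at 4 and 6 h, against -0.85 at 1 and 2 h, a difference of 0.87 ± 0.14 (SE, 95% interval 0.51 to 1.23, limma). Its adjusted p was 0.767, as no feature passed in this fit (0 of 8777, with 5.57% under an unadjusted p of 0.05). Egr1 averaged -0.61 at the late times, against -0.10 at the early ones (difference -0.50 ± 0.21), Egr4 -0.42 against -0.05 (-0.37 ± 0.17), and Nr4a1 -0.32 against 0.25 (-0.57 ± 0.27). The intervals of these 3 differences span 0. Without the 2 h array, 1 h alone stands for the early times. The contrast is then that of 1 h against later times with the sign turned, and adds no second test. It was -0.77 for Egr1, -0.54 for Egr4, -0.95 for Nr4a1 and 0.88 for Nr4a2 feature 8853. Nr4a2 feature 6395 gave 0.22 ± 0.12 there. In the fit that admitted features with values on 3 arrays it gave 0.22 ± 0.19.

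The remaining family members on the platform, Egr2, Egr3 and Nr4a3, had 1 feature each, and none had a value on all 4 arrays. Egr2 (Krox20) read 0.42, 0.12 and 0.02 at 2, 4 and 6 h. Egr3, which shares targets with Egr1, read 0.36 at 2 h, -0.53 at 4 h and 0.22 at 6 h. Nr4a3 (Nor1) read 0.14, 0.49 and 0.07 at 1, 2 and 6 h. At 2 h all of these were positive, where Egr1, Egr4, Nr4a1 and Nr4a2 feature 8853 were all negative.

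Of the partners, Rxra, a retinoid X receptor, had ratios of 0.49, -0.27, -0.71 and -0.65 at 1, 2, 4 and 6 h, and was 1.03 ± 0.20 higher at 1 h (adjusted p = 0.0349, limma). It was the 1 of 5 features of cofactors and partners to pass, where 11.8% of all features did. In this list 0 passed without the 4 h array, without the 6 h array, with quantile normalisation or with equal spread. The Rxrb features gave 0.37 ± 0.20 and -0.07 ± 0.13 for the same difference, and the corepressors Nab1 and Nab2, of which Nab2 is itself an Egr target, gave -0.31 ± 0.17 and -0.09 ± 0.11. None of the 15 features of upstream factors passed, beside the same 11.8% of all features. Their median difference was -0.10, beside -0.04 over all features. Srf, the serum response factor, had the highest difference of them at 0.37 ± 0.11 (adjusted p = 0.0714, limma) and Mef2d the lowest at -0.40 ± 0.27. The Creb1 features gave -0.14 ± 0.13 and -0.10 ± 0.11, and Crem, whose short product represses CREB targets, gave -0.05 ± 0.16 with ratios between 0.11 and 0.41 at all 4 times.

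Other immediate early genes, a list chosen with earlier results of these data known, had a positive difference between 1 h and later times in 24 of 32 features, and 9 features passed, all higher at 1 h, where 5.45% of all features passed in that direction. With quantile normalisation and with equal spread 24 of 32 were again positive, but 2 and 1 passed; 2 passed without the 4 h array and 2 without the 6 h array. Over the 4 times their median ratio was 0.28, -0.06, -0.18 and -0.13, beside -0.03, -0.01, 0.00 and 0.00 over all features. The median difference was 0.36, and Egr1, Egr4 and Nr4a1 lay above it. The 9 that passed were features of Fos, Sik1, Ccn1, Bdnf, Dusp6, Gadd45b, Homer1, Arc and Junb. Fos, a component of AP-1, was highest at 2.25 ± 0.12 (adjusted p = 0.00555, limma) by its feature 15860, while its feature 13010 gave 0.09 ± 0.11. Arc, a synaptic protein whose gene Egr factors bind, gave 0.65 ± 0.13 (adjusted p = 0.0386, limma) and Junb 0.61 ± 0.11 (0.0324). The Bdnf features gave 0.77 ± 0.14 and -0.24 ± 0.11, and those of Homer1, 4 in number, lay between -0.40 and 0.65. The Dusp1 features gave 0.66 ± 0.16 and 0.54 ± 0.16, Ier2 0.17 ± 0.12, Btg2 0.27 ± 0.16 and Atf3 0.20 ± 0.23, and none of these passed. The lowest was Ier3 at -0.55 ± 0.14, with ratios of -0.68, -0.12, -0.01 and -0.27 at 1, 2, 4 and 6 h. Nr4a2 feature 8853, with a difference of -0.59, was low at both 1 and 2 h.

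**Figure D4:**
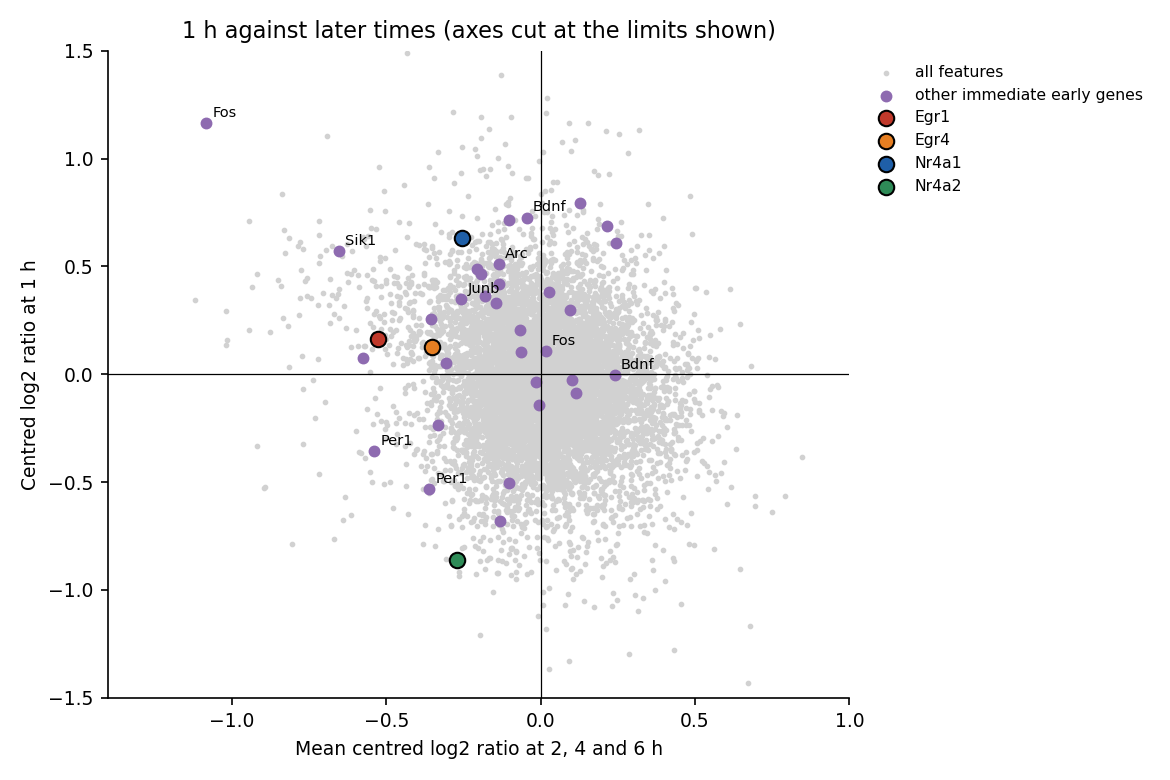
Centred log2 ratio at 1 h against the mean at 2, 4 and 6 h for all features with values on all 4 arrays (grey), other immediate early genes (purple, some named) and the member features (large points). Egr1, Egr4 and Nr4a1 lie to the upper left with features of Fos, Sik1, Junb and Arc, and Nr4a2 lies in the lower left with Per1.

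Among known targets, a list again chosen with earlier results known, Arc was the 1 of 4 Egr target features to pass, where 11.8% of all features did. Of the others, Syn2, a synaptic vesicle protein, gave 0.44 ± 0.13 (adjusted p = 0.0803, limma), Pdgfa 0.07 ± 0.12 and Nab2 the value above. Nr4a targets had 3 features with values on all arrays, of which 1 passed, the higher of those of Bdnf above; the others were the second Bdnf feature and Slc6a3, the dopamine transporter, at 0.54 ± 0.18 (adjusted p = 0.1, limma). In both lists 0 features passed without the 4 h array, without the 6 h array, with quantile normalisation or with equal spread.

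The features nearest to each member by Euclidean distance over the 4 arrays, out of 7683 named ones, came from genes outside these lists. Nearest to Egr4 were Mknk2, a kinase downstream of ERK (distance 0.0685), Ppl (0.0692), Gucy2g (0.0878), Prkcd, a protein kinase C (0.0928), and Met, a growth factor receptor (0.103). Nearest to Nr4a1 were Trim59 (0.1), Ctdnep1 (0.162), the transcription factor Nfic (0.177), Tspan15 (0.178) and Gramd3 (0.184). Egr1 had Capns2 (0.189), Olfr894 (0.192), 2210408I21Rik (0.194), Wdr13 (0.195) and Tmco6 (0.198) closest to it. Nr4a2 feature 8853 had neighbours at larger distances, Glmn (0.263), Cntnap1 (0.297), Mast1 (0.428), Srpk2 (0.487) and Amy2a5 (0.522). A distance over 4 values is a description of these arrays.

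The place of a feature on the platform was examined because a run of low values lay near the Nr4a1 feature, which has number 15733. Of the 50 features with the next higher numbers, 13 were at or under -1.5 on at least 1 later array. They lay 28 to 44 numbers away from Nr4a1, with medians of -0.91, -3.01, -3.47 and -2.79 in the order of the times. Among the 48 features listed on the other side, 3 were as low, the nearest of them 13 numbers away. The 20 features nearest to Nr4a1 in number had medians of 0.20, -0.03, -0.05 and 0.08, so Nr4a1 lay above them at 1 h and below them at 4 and 6 h. For Nr4a1 these medians rest on the 11 to 14 of the 20 that had a value at a time. The 20 nearest to Egr1 had medians of -0.12, 0.13, 0.01 and 0.02, and those nearest to Egr4 0.09, 0.20, 0.00 and 0.06, against the negative later values of both genes; those with a value numbered 7 to 12 for Egr1 and 10 to 18 for Egr4. Nr4a2 feature 8853 had neighbours with medians of 0.22 and 0.03 at 1 and 2 h, over 13 and 10 features with a value. The part of position in these ratios was not tested further.

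**Figure D5:**
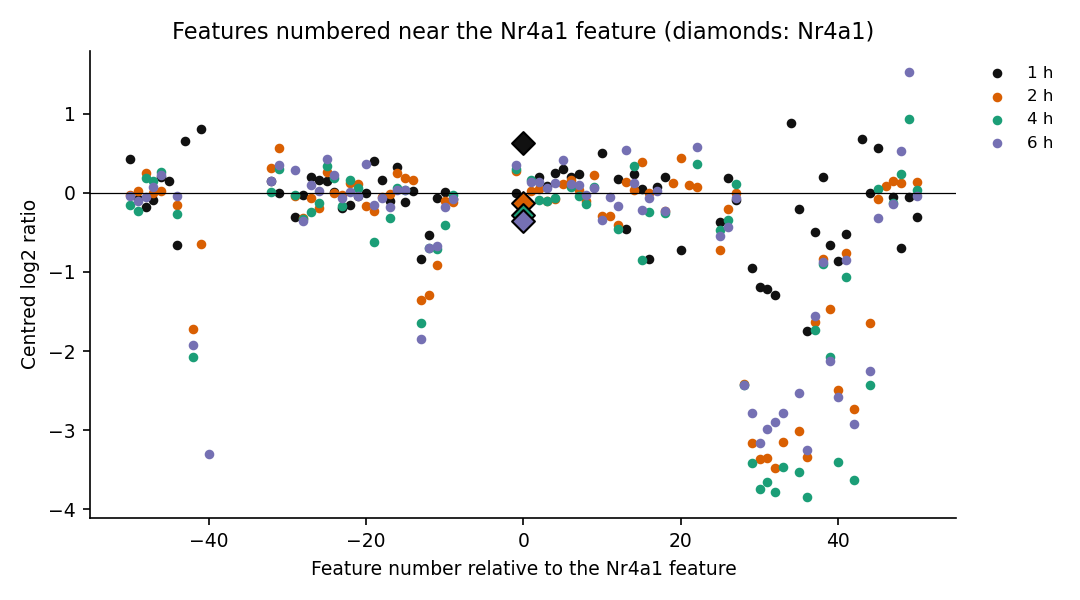
Centred log2 ratio at 1, 2, 4 and 6 h (colours) of features by their number relative to the Nr4a1 feature, which is drawn as diamonds at 0. The 20 features nearest to Nr4a1 lie between -0.92 and 0.50, and the low run begins 28 numbers further on.

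Markers of other cells and of the tissue itself were followed, though a ratio of channels from the same tissue shows a difference in makeup and not the tissue's identity. In such bulk RNA fewer cells of a type and less RNA per cell cannot be told apart. Granule cell markers had median ratios of -0.23, -0.10, -0.07 and -0.11 at 1, 2, 4 and 6 h over 7 features. In the test of 1 h against later times, which 11.8% of all features passed, 0 of the 7 did; Neurod1 had the highest difference at 0.15 ± 0.12 and Prox1 the lowest at -0.85 ± 0.22. Astrocyte markers had a median difference of -0.05 over 11 features, of which 1 passed. That was Gfap, a filament protein of astrocytes, which was lower at 1 h (-0.49 ± 0.11, adjusted p = 0.0483, limma) with a ratio of -0.11 at 1 h and of 0.41, 0.32 and 0.42 at 2, 4 and 6 h. An Slc1a2 feature was the highest at 0.49 ± 0.18, and no astrocyte feature passed without the 4 h array, without the 6 h array, with quantile normalisation or with equal spread. None of 11 features of microglia, 9 of oligodendrocytes and 3 of blood passed, and their median differences were 0.05, -0.14 and -0.03. The microglial features ran from -0.39 (C1qb) to 0.32 (a Ctss feature), those of oligodendrocytes from -0.55 (Cnp) to 0.27 (Mag), and those of blood from -0.26 to 0.26, both Hbb-b2 features. Vessel markers had a median difference of -0.36 over 5 features, of which 1 passed, lower (Cldn5, -1.19 ± 0.18), and Flt1 was the highest at 0.47 ± 0.12. No vessel feature passed without the 4 h array or with equal spread, while 1 did without the 6 h array and with quantile normalisation. Of 3 choroid plexus features, 1 passed, a Kl feature at 3.15 ± 0.22, while the other Kl feature gave -0.11 ± 0.11. The Kl feature that passed read 0.20 at 1 h and -2.64, -3.03 and -3.18 at 2, 4 and 6 h. Where features at or under -1.5 were left out, it was removed and no choroid plexus feature passed. Ttr, the carrier protein that defines choroid plexus, read -0.20, -0.90, -0.60 and -0.70 at 1, 2, 4 and 6 h. Its difference of 0.53 ± 0.15 did not pass (adjusted p = 0.069, limma) and had the sign of those of Egr1, Egr4 and Nr4a1. Pyramidal cells were represented by Bok alone, at 0.69 ± 0.11, which passed. Bok did not pass without the 4 h array, without the 6 h array, with quantile normalisation or with equal spread. The part of cell makeup in the member ratios was not tested.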

How the data were processed

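The series' 4 2-channel arrays were used through the deposited table of log ratios, read as log2. The authors' scanning, background correction and normalisation, the log base and the direction of the ratio are not given in the sources used here; per the labels, MK-801 RNA carried Cy5 and saline RNA Cy3. Leaving out zeros, the deposited arrays had medians between 0.00525 and 0.0165 and so came centred. An exact 0 (24.9% to 37.4% of an array) was taken as no value, and each array was centred on its median. Without intensities, signal over background is unknown, and the number of arrays limits the precision.

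Of 16281 features, 13738 had 1 gene symbol, 52 several and 2491 none in the platform annotation; 13694 identifiers matched the RefSeq gene table of GRCm38.p6, and 0 symbols changed. Features were tested singly with limma 3.58.1 (lmFit, eBayes, two-sided, Benjamini-Hochberg over all features fitted, threshold 0.05) in R 4.3.3: the mean against 0, the slope on log2 hours, 4 and 6 h against 1 and 2 h, and 1 h against the later times. The error in each test is the scatter of arrays that differ in time. The members, lists and tests were chosen with earlier results of these data known. Named were all member and family features, the 5 nearest features to each member, set signalling genes and the extremes of each list. Fosb and Npas4 were not analysed here. Promoters were taken from RefSeq. Alternatives were the centring, scaling, reading of exact 0, filters, array weights and leaving out each array.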

Additional observations from a re-analysis of the deposited data

Results flagged for a closer look

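Nr4a1 and Egr1 were each noted because their ratio at 1 h differed from that at the later times by a test of the difference itself. The difference was 0.89 for Nr4a1, with a value of 0.63 at 1 h and a mean of -0.26 ± 0.12 over the later times (SD, n = 3 arrays). It was 0.69 for Egr1, with 0.16 at 1 h and -0.53 ± 0.16 later. Over the settings run, the adjusted p of limma ranged from 0.00947 to 0.0829 for Nr4a1 and from 0.016 to 0.105 for Egr1. Both rest on 1 feature each and on the single array at 1 h.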

How the results depend on the processing

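The differences between 1 h and later times kept their sign under all 13 settings run for Egr1 (0.61 to 0.77), Egr4 (0.40 to 0.54), Nr4a1 (0.74 to 0.95) and Nr4a2 feature 8853 (-1.16 to -0.37), and were past the threshold in 7, 2, 9 and 1 of them. Nr4a2 feature 8853 passed only without the 2 h array (-0.88, adjusted p = 0.0264, limma) and Egr4 only without the 2 h array (0.0455) or with array weights (0.0339). For the 4 member features with values on all 4 arrays, 196 values over all tests kept direction and side of the threshold. Of the rest, 12 newly passed, 10 no longer passed and 2 turned sign. Without the 2 h array, late against early times and 1 h against later times are 1 test, counted here under both. Those that turned sign were means of Nr4a1, 0.047 without 4 h and 0.076 without 6 h. With single arrays left out this mean ran from -0.26 to 0.076. Features past the threshold between 1 h and later times numbered 1036, against 243 with quantile normalisation, 24 with equal spread, 1967 with exact 0 as a value, 2293 with array weights and 118 to 1659 with single arrays left out. For the mean over the times 0 became 11 with quantile normalisation, 19 with values on at least 3 arrays, 2406 with array weights and 0 to 1023 with arrays left out. For late against early times 0 became 6 with exact 0 as a value and 0 to 1659 with arrays left out; slopes stayed at 0. Member features at or above 0.5 at 1 h numbered 1, but 0 with quantile normalisation, 0 with equal spread, 0 at a limit of 1 and 2 if the values were log10. Those at or below -0.5 numbered 1 at each time, 0 at a limit of 1, 2 at 4 h with equal spread, 2 at 2, 4 and 6 h as natural logarithms, and 2, 3, 3 and 4 at 1, 2, 4 and 6 h as log10. Turning the sign of the table turns every direction and no size, and the log base changes sizes but not tests. Each ratio already pairs MK-801 and saline RNA of 1 time on the same array. No pairing of replicates was possible, as each time has 1 array with no replicate number.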
